A study of Homo sapiens with 2 samples.

Results

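Strong gene-body siNEG sites are intervals in which the siNEG library reached a −log10 q of 10 or more, with a summit inside a protein-coding gene and more than 1 kb from every protein-coding gene end. There were 973 of them, 21.4% of the 4539 strong siNEG intervals and 5.98% of all 16274 siNEG intervals on chromosomes 1 to 22 and X. The other strong intervals comprised 2532 with a summit within 1 kb of a gene end and 1034 outside genes. CUT&Tag for EWS-FLI binding was done on TC32 cells, an established line from an Ewing sarcoma, that had been given siNEG. A single second library came from TC32 cells given siEWS-FLI. The labels spell out neither siNEG nor the antibody, and give no dose, time or repeat cultures, so no p-value is reported and every interval covers counting error only.

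Ewing sarcoma is driven by EWS-FLI, in which part of EWSR1 is joined to the DNA-binding part of FLI1, a transcription factor of the ETS family. ETS proteins recognise a GGAA core, which at promoters is often read within the longer site CCGGAAGT, and the fusion is known also to bind runs of repeated GGAA. In CUT&Tag a transposase is brought to the antibody's target and inserts sequencing adapters in the DNA around it. A gene body can hold enhancers, as well as internal promoters from which shorter forms of the same gene, or antisense and other long non-coding RNAs (lncRNAs), are transcribed.

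Of the 932 sites that could be compared with the RefSeq promoter windows, 218 (23.4%, 95% Wilson interval 20.8 to 26.2%) had a tabulated transcript start within 1 kb. They are shown first because the share also called with siEWS-FLI differed between these sites and the rest. The 250 bases before each start are printed 5′ to 3′ on the strand of the gene (RefSeq, GRCh38.p14), with every GGAA or TTCC, its reverse complement, in capitals. Overlapping matches were counted separately. The first set holds the 3 sites with the highest siNEG signal among those whose summit lay in such a window and that were also called with siEWS-FLI. MVB12A, a subunit of the ESCRT-I sorting complex, had a siNEG pileup of 236 reads and a siEWS-FLI pileup of 9. ZNF875, a zinc finger protein, had 142 and 11, and SIN3A, the scaffold of a histone deacetylase complex, had 127 and 14.
MVB12A, chr19:17419797-17420046, plus strand: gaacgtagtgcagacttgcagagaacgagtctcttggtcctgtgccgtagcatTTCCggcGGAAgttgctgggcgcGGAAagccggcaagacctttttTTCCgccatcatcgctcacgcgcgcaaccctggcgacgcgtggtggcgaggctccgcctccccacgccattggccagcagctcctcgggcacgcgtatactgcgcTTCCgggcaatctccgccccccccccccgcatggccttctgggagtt
ZNF875, chr19:37317632-37317881, plus strand: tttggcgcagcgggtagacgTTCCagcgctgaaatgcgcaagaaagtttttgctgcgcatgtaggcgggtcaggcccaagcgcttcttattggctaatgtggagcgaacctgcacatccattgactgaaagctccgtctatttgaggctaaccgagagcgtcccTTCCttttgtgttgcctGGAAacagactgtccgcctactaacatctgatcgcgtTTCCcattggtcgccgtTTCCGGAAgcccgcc
SIN3A, chr15:75451691-75451940, minus strand: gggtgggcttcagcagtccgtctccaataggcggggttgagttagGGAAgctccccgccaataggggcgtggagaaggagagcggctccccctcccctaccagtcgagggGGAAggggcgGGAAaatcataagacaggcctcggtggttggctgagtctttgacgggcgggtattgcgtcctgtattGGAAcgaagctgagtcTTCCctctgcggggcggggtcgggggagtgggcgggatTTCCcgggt

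The next 3 had the highest siNEG signal among those with no siEWS-FLI call. UVSSA, a factor of transcription-coupled DNA repair, had 55 siNEG reads at its summit, L3MBTL1, a chromatin reader, had 53, and UBE2D3, a ubiquitin-conjugating enzyme, had 47. The L3MBTL1 stretch held 0 GGAA cores on either strand, and the UBE2D3 stretch held 6, as many as those of ZNF875 and SIN3A.
UVSSA, chr4:1346958-1347207, plus strand: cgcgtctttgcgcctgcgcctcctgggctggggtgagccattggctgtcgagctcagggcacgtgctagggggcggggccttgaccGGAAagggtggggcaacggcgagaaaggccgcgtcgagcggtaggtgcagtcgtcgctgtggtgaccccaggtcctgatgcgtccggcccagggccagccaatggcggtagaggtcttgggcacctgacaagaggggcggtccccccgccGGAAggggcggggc
L3MBTL1, chr20:43514191-43514440, plus strand: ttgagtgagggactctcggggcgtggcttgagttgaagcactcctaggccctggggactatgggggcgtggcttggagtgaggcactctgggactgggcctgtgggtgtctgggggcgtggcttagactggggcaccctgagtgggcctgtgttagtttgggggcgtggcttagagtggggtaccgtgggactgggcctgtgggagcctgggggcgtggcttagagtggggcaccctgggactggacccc
UBE2D3, chr4:102827949-102828198, minus strand: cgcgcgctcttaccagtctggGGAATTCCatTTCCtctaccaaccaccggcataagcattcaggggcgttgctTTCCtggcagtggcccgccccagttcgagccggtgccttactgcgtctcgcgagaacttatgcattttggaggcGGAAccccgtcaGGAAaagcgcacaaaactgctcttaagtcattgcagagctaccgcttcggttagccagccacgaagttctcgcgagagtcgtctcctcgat

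The last 3 were chosen after their values were seen: EGR2, a zinc finger factor reported as an EWS-FLI target, PCNA, the sliding clamp of DNA replication, and DPEP1, a membrane dipeptidase whose stretch held the most cores. EGR2 had 26 siNEG reads and no siEWS-FLI call, PCNA had 30 and 5 reads, and DPEP1 had 15 siNEG reads and no call. Most of the 13 cores before DPEP1 lie close together, and none directly adjoins another.
EGR2, chr10:62816367-62816616, minus strand: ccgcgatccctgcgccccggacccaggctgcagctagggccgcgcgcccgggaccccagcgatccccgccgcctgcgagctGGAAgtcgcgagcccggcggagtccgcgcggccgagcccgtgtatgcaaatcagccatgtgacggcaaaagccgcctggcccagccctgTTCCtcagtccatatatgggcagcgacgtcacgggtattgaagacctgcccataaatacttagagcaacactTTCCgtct
PCNA, chr20:5119959-5120208, minus strand: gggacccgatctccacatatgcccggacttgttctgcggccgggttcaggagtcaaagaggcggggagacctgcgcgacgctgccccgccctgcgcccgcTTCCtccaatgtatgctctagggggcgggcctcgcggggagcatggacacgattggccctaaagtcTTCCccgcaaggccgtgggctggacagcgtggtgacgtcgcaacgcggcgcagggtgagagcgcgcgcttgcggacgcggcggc
DPEP1, chr16:89616635-89616884, plus strand: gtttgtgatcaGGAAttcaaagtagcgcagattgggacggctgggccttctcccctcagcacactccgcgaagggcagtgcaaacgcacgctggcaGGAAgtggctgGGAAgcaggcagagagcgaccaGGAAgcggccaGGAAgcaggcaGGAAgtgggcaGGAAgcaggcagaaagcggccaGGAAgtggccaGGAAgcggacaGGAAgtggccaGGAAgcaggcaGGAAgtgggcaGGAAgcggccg

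Of the 10 shared sites with the most siNEG reads, the top 3, described further below, kept most of them in the siEWS-FLI library, and the other 7 had far lower counts there. The summit pileup counts the extended reads that cover the highest base of an interval. It is used below as the raw signal of a site and is not scaled between libraries. MYT1L, a neuronal zinc finger factor, had 228 reads with siNEG (exact 95% Poisson interval 199 to 260) and 6 with siEWS-FLI (2.2 to 13.1) at chr2:2057148-2057772. Its ratio of 0.0263 was the lowest of all. MGAT1, which starts complex N-glycan synthesis, had 211 and 14 reads at chr5:180809837-180810769, 89 bases past an internal start. CELF5, an RNA-binding splicing regulator, had 191 and 10 reads at chr19:3284948-3285597. PIWIL1, a germline Piwi protein, had 157 and 5 reads at chr12:130386764-130387770. OR4E2, an olfactory receptor, had 170 and 10, and EXOSC4, a subunit of the RNA exosome on chromosome 8, had 395 and 18. At each of these sites the upper limit of the siEWS-FLI count lay far below the lower limit of the siNEG count.

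Other strong sites had no siEWS-FLI call at all. A missing call does not mean 0 reads: at each uncalled site the ceiling is the highest pileup that would still have gone uncalled if the siNEG local background held in the siEWS-FLI library. This is an overstated limit, since 150 of the 270 sites called with siEWS-FLI had pileups at or under theirs. SULF1, an extracellular sulfatase on chromosome 8, had 161 siNEG reads and a ceiling of 18. APCDD1, a membrane inhibitor of Wnt signalling, had 137 reads at chr18:10462135-10462792 and a ceiling of 18. MYO15B had 106 at chr17:75588992-75589618 with a ceiling of 14, and NTM, the neural adhesion molecule neurotrimin, had 101 at chr11:131975512-131976412 with a ceiling of 19. The next 6 uncalled sites, in MGAT4C, PRR5L, PDE6A, CLDN14, TMEM114 and L3MBTL2, had 94, 90, 85, 81, 80 and 76 siNEG reads. Of these 10, only the L3MBTL2 site lay within 1 kb of a tabulated start, that of L3MBTL2-AS1, and the SULF1 site was not assessed.

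In all, 270 of the 973 sites were also called with siEWS-FLI, or 27.7% (25 to 30.6%), counting any overlap of at least 1 base. Over all siNEG intervals the share was 15.6%, and over the 4539 strong ones it was 41%. The share depended on siNEG signal. Of gene-body sites with under 20 reads 14.7% were called, with 20 to 49 reads 29.8%, with 50 to 99 reads 63.4%, and with 100 or more 86.7%. Over all siNEG intervals the same classes gave 7.52%, 41.4%, 74.7% and 92.6%. From 20 reads up, gene-body sites were thus called less often than the whole list, and below 20 reads the whole list consists mostly of intervals under the strong threshold.

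Where a siEWS-FLI interval was present, its summit was close to that of siNEG and its pileup was mostly lower. The median distance between the summits was 56.5 bases, and 185 of the 270 pairs (68.5%) lay within 100 bases. Pairs were defined by overlap of their intervals, which itself limits this distance. Median widths were 462 bases for all gene-body sites and 269.5 for the siEWS-FLI intervals. The median ratio of siEWS-FLI over siNEG pileup was 0.26 (0.238 to 0.278), and 167 of the 270 siEWS-FLI pileups were under 10 reads. Across the whole libraries the background was 0.239 reads per base with siEWS-FLI and 0.348 with siNEG, a ratio of 0.687. The pileup ratio was below this at 255 of the 270 shared sites. The sites were chosen for a high siNEG value, which lowers a ratio over siNEG, so the ratio is a description. At the 150 gene-body sites under the strong threshold that were also called with siEWS-FLI, the median ratio was 0.7. Within the strong sites the ratio fell with siNEG signal, from a median of 0.4 under 20 reads to 0.106 at 100 reads or more. Shared sites with few siNEG reads passed only if their siEWS-FLI pileup was high enough to be called, so their ratios cannot take low values. At the 703 uncalled sites the median ceiling was 6 reads (3 to 29), a median of 29.4% of the siNEG pileup.

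**Figure D1:**
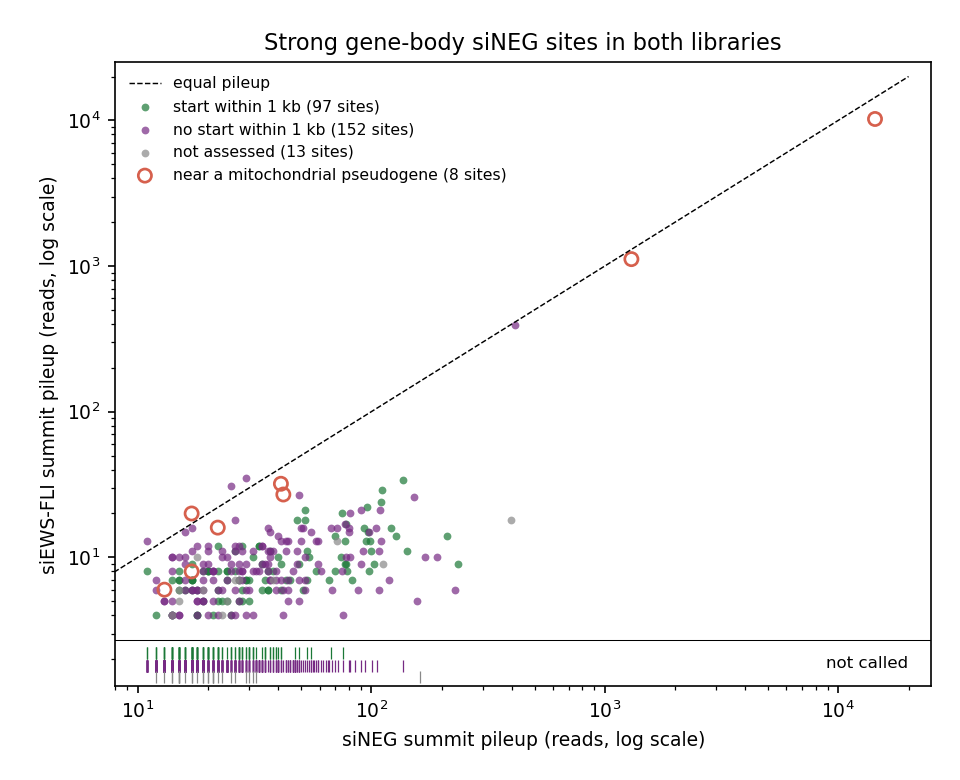
Summit pileup with siNEG (x axis, reads, log scale) against siEWS-FLI (y axis, reads, log scale) for the 270 shared gene-body sites, 1 point each, coloured by whether a tabulated transcript start lay within 1 kb, with circles for the 8 sites near a mitochondrial pseudogene. Marks under the horizontal line are the siNEG pileups of the 703 sites without a siEWS-FLI call; most points lie well below the dashed line of equal pileup, and several circles lie near it.

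A few sites kept their signal, and sites beside mitochondrial pseudogenes stood out among them. These pseudogenes are copies of mitochondrial DNA inserted in nuclear chromosomes. After the values were seen, the sites were grouped by whether the nearest non-coding gene end within 1 kb belonged to a gene named as a mitochondrial pseudogene. There were 8 such sites, and all 8 were called with siEWS-FLI (Wilson interval 67.6 to 100%), against 262 of the other 965 (27.2%, 24.4 to 30%). Their median ratio was 0.719, with a range of 0.462 to 1.18, against 0.258 at the other shared sites. The median of 0.719 is close to the ratio of library-wide backgrounds, 0.687. Of all shared sites, 15 had a ratio at or above 0.687.

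The largest were the pair in LOC102724250 on chromosome 1. The interval chr1:633843-634207, near MTATP8P1, had 14364 siNEG and 10220 siEWS-FLI reads. The second interval, chr1:629803-630109, near MTND2P28, had 1300 and 1115. The others were KIAA0825 (41 and 32 reads, MTCYBP35), PCBD2 (42 and 27, MTND5P11), CPN1 (22 and 16, MTATP8P4), AKAP6 (17 and 20, MTCO1P2), RGPD2 (17 and 8, MTATP8P2) and SMAD2 (13 and 6, MTCO2P2). How reads from mitochondrial DNA were aligned or filtered is not given in the sources used here, and their part in these counts was not tested.

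Most sites that kept much of their signal had no such neighbour. Of the 20 shared sites with a ratio over 0.6, 6 were near a mitochondrial pseudogene by this definition. SPTLC3 and TASP1, which overlap on chromosome 20, share a site of 413 and 396 reads at chr20:13167154-13167511. CACNA1C, the pore subunit of an L-type calcium channel, had 25 and 31 reads at chr12:2255827-2256081, the highest ratio of all at 1.24. ST6GALNAC5, a sialyltransferase, had 11 and 13. Among the 78 shared sites with 50 or more siNEG reads, only SPTLC3/TASP1 and the pair in LOC102724250 had a ratio over 0.5. Next came SLC27A1, a fatty acid transporter, with 52 and 21 reads, and ZNF444, a zinc finger factor, with 52 and 18.

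Transfer RNA genes were the other small class of neighbours whose sites were all called, and were singled out after their values were seen. Transfer RNA genes are short and are transcribed by RNA polymerase III. Within 1 kb of one lay 4 sites, all called (Wilson interval 51.0 to 100%), against 27.7% of all gene-body sites. Among gene-body sites with 100 or more reads 86.7% were called, and among those with 50 to 99 reads 63.4%. The KCTD2 site, 77 bases from TRR-TCG3-1, had 109 and 21 reads, and the CTC1 site, 101 bases from TRS-AGA2-6, had 80 and 15. The SHF site had 28 and 11 reads and the LTA4H site 15 and 7. Their median ratio of 0.293 was close to that of all shared sites, unlike that of the mitochondrial pseudogene group. In all, 104 sites (10.7%, 8.9 to 12.8%) lay within 1 kb of any non-coding gene end, against 276 of 4210 weaker gene-body siNEG sites (6.56%, 5.85 to 7.34%). The nearest such gene was a lncRNA for 68 sites, of which 27 were called with siEWS-FLI (39.7%, 28.9 to 51.6%).

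Internal transcript starts formed a much larger class. The tabulated starts were not used to choose the sites, and cover 79.2% of protein-coding genes. They hold no windows on chromosome 8, so its 41 sites were not assessed, and 140 of the assessed sites lie in hosts with no tabulated start of their own. Of the 218 sites with a start within 1 kb, 90 lay within 100 bases of it and 174 within 250. The summit was upstream of the start at 153, at its base at 2 and downstream at 63, with a median of 100 bases upstream. The start belonged to the host gene at 181 sites and to a lncRNA at 37. Among 4017 assessed gene-body sites below the strong threshold, 437 (10.9%, 9.95 to 11.9%) had a start within 1 kb.

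**Figure D2:**
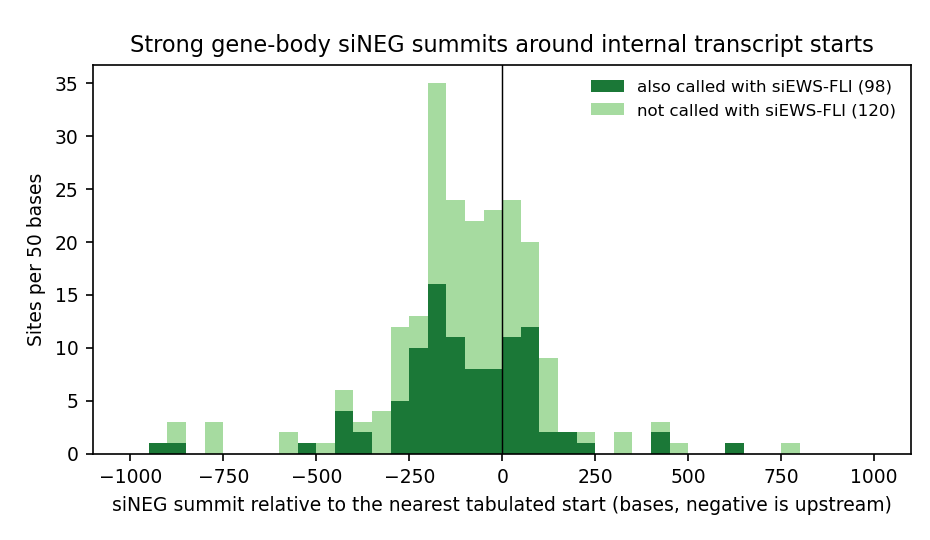
Position of the siNEG summit relative to the nearest tabulated start (x axis, bases, negative values upstream) for the 218 gene-body sites with a start within 1 kb, as sites per 50 bases (y axis). Dark bars are the 98 sites also called with siEWS-FLI and light bars the 120 not called; both pile up within 250 bases of the start, mostly upstream.

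Sites at internal starts were called with siEWS-FLI more often than other gene-body sites of the same siNEG signal. Of the 218, 98 were called (45.0%, 38.5 to 51.6%), against 159 of the 714 sites without a start (22.3%, 19.4 to 25.5%). In rising classes of siNEG pileup the shares were 26.3%, 41.7%, 85.7% and 100% with a start, and 11.4%, 26.0%, 50.9% and 81.2% without. Weighted to the pileups of the sites with a start, the difference was 18.1 percentage points (11.3 to 24.8). The ratio at shared sites differed less, with medians of 0.225 with a start and 0.273 without.

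Each kind was then set beside the strong siNEG sites elsewhere, with the weights taken from the gene-body sites. All gene-body sites together were called 17.0 points less often than gene-end sites (difference −17.0, −20.2 to −13.8). They differed from intergenic sites by 2.33 points (−1.28 to 5.94). Sites at internal starts differed by −6.1 points (−12.3 to 0.131) from gene-end sites with a tabulated start. Sites without a start differed by −2.46 points (−6.39 to 1.47) from intergenic sites without one, and by −11.2 points (−16.8 to −5.58) from gene-end sites without one. Among sites without a start, 24.6% were called where a siNEG site also lay at an end of the host gene and 21.2% where none did, a weighted difference of 2.78 points (−3.72 to 9.27). The intervals here that include 0 leave room for differences of several points.

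**Figure D3:**
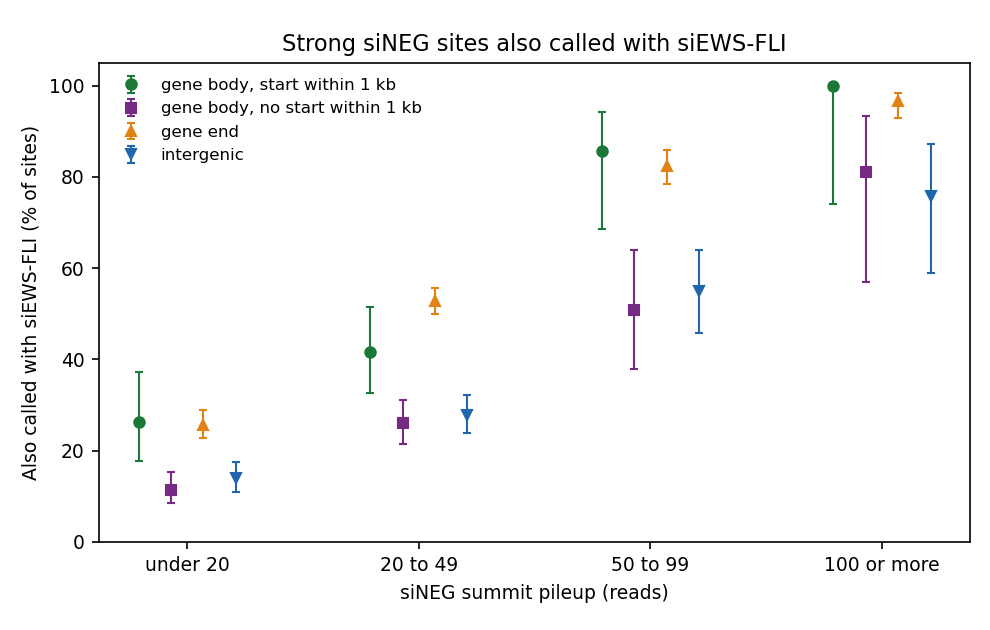
Share of strong siNEG sites also called with siEWS-FLI (y axis, percent) by siNEG summit pileup (x axis, reads), for gene-body sites with and without a tabulated start within 1 kb, gene-end sites and intergenic sites; bars are 95% Wilson intervals. Sites at internal starts lie near gene-end sites in 3 of the 4 classes, and sites without a start lie near intergenic ones.

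Several proteins of DNA repair and replication were among the hosts with sites at internal starts. They were picked out after their values were seen, because the study concerns cisplatin and ATR inhibition. ERCC1, a subunit of the nuclease that excises bulky DNA lesions, had 121 siNEG and 16 siEWS-FLI reads at chr19:45423554-45424548, 103 bases past a start. A second ERCC1 site away from any start had 33 siNEG reads and no call. RAD52, a recombination protein, had 27 and 7 reads. LIG4, the ligase of end joining, had 20 siNEG reads 15 bases from a start, and CDC25C, a mitotic phosphatase held back by the DNA damage checkpoint, had 17 at 37 bases. Neither of the last 2 was called. Together with the UVSSA and PCNA sites printed above, 3 of these 6 start sites were called. UVSSA was printed among sites with no call, and the others were picked with their values known. The count is therefore not compared with other sites.

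The sequence before the starts was compared between sets of windows. A window runs from 250 bases before a start to 50 after it, and 141 sites had their summit in one. Each motif was sought on both strands, and GGAA is part of CCGGAA, which is part of CCGGAAGT. CCGGAAGT was in 16.3% of the 141 windows (11.1 to 23.3%), in 28.1% of 1461 windows that hold the summit of a strong gene-end site, and in 4.14% of all 34961 tabulated windows. CCGGAA was in 43.3%, 60.6% and 17.3%. GGAAGGAA was in 6 windows, or 4.26% (1.96 to 8.97%), against 3.76% and 3.67%, and GGAA repeated 3 times without a gap was in 0 of the 141, against 0.0858% of all windows. GGAA itself was in 95.7% of the windows and in 95.5% of all windows.

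Windows of sites called and not called with siEWS-FLI held the ETS motifs at shares whose intervals overlap. CCGGAAGT was in 15.6% of the 64 called (8.71 to 26.4%) and 16.9% of the 77 not called (10.1 to 26.8%), and CCGGAA in 37.5% (26.7 to 49.7%) and 48.1% (37.3 to 59.0%). GGGCGG, the core of Sp1 sites, was in 70.9% of the 141 windows, 79.0% of the gene-end windows and 45.0% of all windows. For CCAAT, bound by NF-Y, these shares were 46.8%, 47.0% and 34.6%. Both motifs were thus about as common or more common at gene-end sites. TGACGTCA, bound by CREB and ATF proteins, was in 2.84% (1.11 to 7.07%), an interval that includes the 1.85% of all windows. The median share of G and C was 66.0% in the 141 windows, 65.3% in the gene-end windows and 58.7% in all windows. The part of G and C content in the motif shares was not tested. Sequence of the 714 sites away from starts was not analysed here.

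The host genes were long. The 973 sites lay in 889 hosts, 4.45% of 19974 protein-coding genes, and 14 sites lay inside 2 genes at once. The median host was 83.3 kb long, against 24.2 kb for all protein-coding genes. A site more than 1 kb from both ends needs a gene longer than 2 kb, and a longer gene offers more room. With genes ranked by length and cut into 4 equal groups, from short to long 0.641%, 2.68%, 4.47% and 10% of genes were hosts. The median summit lay 16.7 kb from the nearest gene end (quartiles 5.2 and 52.5 kb, longest 729 kb). At sites with a start this depth was 6.26 kb, and at sites without one 24.4 kb, a split that also depends on where the tabulated starts lie.

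Along the gene, sites at starts leaned to the 5′ end and other sites did not. A site grouped by a start within 1 kb lies where that start lies. The positions of all tabulated starts were not compared, so the lean may be that of the starts themselves. Strand is known for hosts that have a tabulated start. Of 214 sites at starts, 41.6% lay in the first 20% of the host and 6.07% in the last 20%. Of 578 sites without a start, 19.6% lay in the first 20% and 17.0% in the last 20%. The share in the middle 20% was 16.4% at starts and 23.2% elsewhere.

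**Figure D4:**
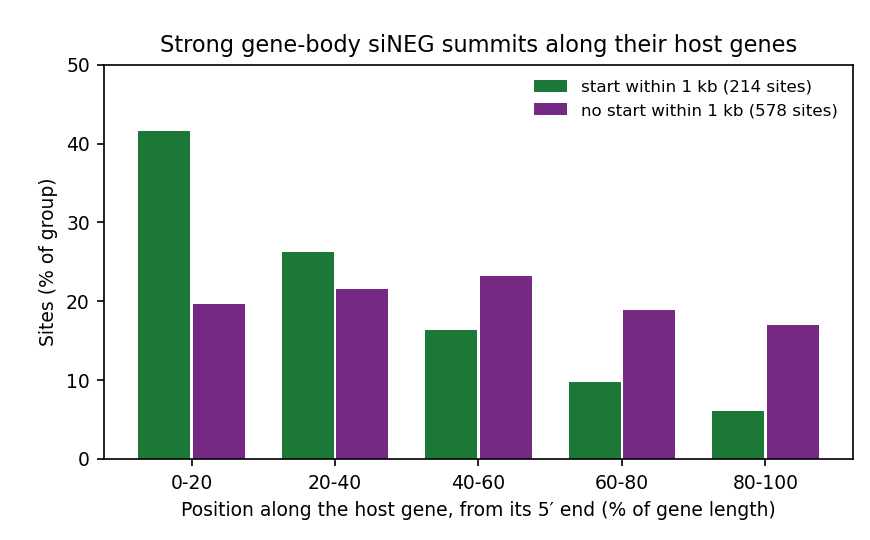
Position of the siNEG summit along its host gene from the 5′ end (x axis, percent of gene length in steps of 20) as the share of sites in each group (y axis, percent), for 214 sites with a tabulated start within 1 kb and 578 without. Bars for sites with a start fall from 41.6% to 6.07%, and those for sites without one stay between 17.0% and 23.2%.

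Most hosts held a single site: 803 held 1, 74 held 2 and 12 held 3. SIN3A had its 3 sites within 3.19 kb of each other near its 5′ end, with 67, 127 and 51 siNEG reads, and 2 of them were called, with 14 and 16 siEWS-FLI reads. The span varied among the other hosts with 3 sites, from 10.4 kb in FAAP20 to 440 kb in ERC2. CACNA1C had sites of 19, 25 and 24 reads over 312 kb, of which the first 2 had 6 and 31 siEWS-FLI reads. PFKFB3, which makes the glycolysis activator fructose-2,6-bisphosphate, had 62, 24 and 18 reads and no call. MAGI2, a synaptic scaffold, had 45, 12 and 12 over 386 kb and no call. ERC2, of the presynaptic active zone, had 16, 13 and 50, and KIFC3, a kinesin, had 26, 23 and 26, all uncalled. MAML2, a Notch coactivator, had 17, 30 and 59, of which the last was called with 13 reads. SYNPR, a synaptic vesicle protein, had 43, 24 and 21, of which the first was called with 11. FAAP20, of the Fanconi anaemia core complex, had 81, 35 and 21, of which the first was called with 10. FADS2, a fatty acid desaturase, had 27, 18 and 20, of which the second was called with 5.

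Chromosome 19 had the highest share of siEWS-FLI calls of all chromosomes, and was singled out after its values were seen. It held 114 sites, or 7.86 per 100 protein-coding genes, against 7.49 on chromosome 10, the next, and 4.87 over all chromosomes. With siEWS-FLI 57 of the 114 were called (50%, 41.0 to 59.0%), against 24.8% (22 to 27.8%) elsewhere. Chromosome 19 sites were stronger, with a median of 28.0 siNEG reads against 20.0. At equal siNEG pileup the difference was 18.8 points (9.82 to 27.7). For strong gene-end sites the same difference was 2.45 points (−2.65 to 7.55). Without adjustment for siNEG pileup, 26 of 38 sites with a start were called on chromosome 19 (68.4%) and 40% elsewhere. Sites without a start gave 31 of 76 (40.8%) and 20.1%, also unadjusted. With and without a start, the median siNEG pileup was higher on chromosome 19 than elsewhere. Whether the difference at equal siNEG pileup holds for each kind of site was not tested.

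Chromosome 19 is rich in zinc finger genes, which encode DNA-binding proteins that are often repressors. Of 27 sites in hosts named ZNF, ZBTB or ZSCAN, 13 were called (48.1%, 30.7 to 66.0%), against 27.7% of all gene-body sites. Their median siNEG pileup was 27.0 reads against 21.0, and the shares are not adjusted for it. On chromosome 19 lay 14 of the 27, of which 11 were called (78.6%, 52.4 to 92.4%), against 50% of all sites there. The 48.1% thus rests mostly on chromosome 19, since 11 of the 13 calls lay there. Few of these sites on other chromosomes were called. ZNF875, on chromosome 19, was the strongest of the 27. The sites named next were picked after their values were seen. ZBTB45 had 95 siNEG and 13 siEWS-FLI reads, and ZSCAN5A had 79 and 8, both within 55 bases of a start. The rest are chromosome 19 sites in hosts outside this group. HNRNPUL1, an RNA-binding protein, had 137 and 34. NFIC, a nuclear factor I protein, had 108 and 6, and LMTK3, a kinase, had 81 and 20. IER2, an immediate early gene, had 72 siNEG reads and no call.

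Genes reported as activated by EWS-FLI were hosts in 6 of 34 cases, which is 17.6% against 4.45% of all genes. Their median length was 37.8 kb, and in the next-longest and the longest of the 4 length groups 4.47% and 10% of genes were hosts. The list was chosen with earlier results of these data known. The part of gene length in the 17.6% was not tested. These 6 hosts held 10 sites with a median of 17 siNEG reads, of which 2 were called. Among all gene-body sites, 14.7% of those under 20 reads and 29.8% of those with 20 to 49 were called. The 2 of 10 is near these shares. PRKCB, a kinase on which Ewing cells are known to depend, had sites of 34, 17 and 17 siNEG reads over 337 kb, and the second was called with 6. SOX6, a chondrogenic and neural SOX factor, had 33 and 13 reads with no call, and JAK1, a cytokine receptor kinase, had 23 and 11 with no call. EZH2, the methyltransferase of Polycomb repressive complex 2, had 11 and no call. PHF19, a Polycomb-associated protein, had 15 and 6 reads 70 bases past an internal start. With the EGR2 site printed above, these are all 10.

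Repressed targets, core factors and housekeeping genes gave 1 host each. These are 5.26%, 6.67% and 4.17% of the lists, near the 4.45% of all genes. The median gene lengths were 17.5, 11.7 and 6.53 kb. Of 19 genes reported as repressed, 1 was a host: TGFBI, a matrix adhesion protein, with 16 reads and no call. Of 15 factors of the Ewing regulatory circuit, 1 was a host: ETV6, itself an ETS repressor, with 19 and 18 reads and no call. Among 24 housekeeping genes, 1 was a host: ALDOA, a glycolytic aldolase, with 54 and 10 reads, 267 bases upstream of an internal start.

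Chromatin regulators were hosts in 10 of 55 cases (18.2%, median length 109 kb). Of all genes 4.45% were hosts, and of the longest of the 4 length groups 10%. The 10 hosts held 12 sites with a median of 34 siNEG reads, of which 5 were called. Of all gene-body sites 27.7% were called, with 29.8% at 20 to 49 reads and 63.4% at 50 to 99. KAT6B, a histone acetyltransferase, had 111 and 29 reads 231 bases upstream of an internal start at chr10:74826067-74826669. HDAC5 had 80 and 16, and HDAC9 had 48 and 11, both histone deacetylases and both away from any tabulated start, though HDAC5 has none of its own in the table. ARID1A, a subunit of the BAF remodelling complex, had one site of 19 and 7 reads and a second of 34 reads without a call. KDM4B, a histone demethylase, had 35, and HDAC4 had 34 at 83 bases from a start, neither called.

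Lists of neuronal, receptor and matrix genes gave hosts with weak sites, whose calls are to be read against the 14.7% of gene-body sites under 20 reads and 29.8% of those with 20 to 49 that were called. Over all genes 4.45% were hosts, and in the longest of the 4 length groups 10%. Axon guidance and adhesion genes were hosts in 5 of 46 cases (10.9%, median length 290.0 kb), and 0 of their 8 sites were called. SEMA3A, a secreted repellent of axons, had 13, 16 and 32 reads over 235 kb. SEMA6D had 22, DCC, the netrin receptor, had 22, and NRXN2, a presynaptic adhesion protein, had 21. Receptor tyrosine kinases were hosts in 3 of 38 cases: ALK had 13 reads, ROR2 had 12 and ERBB4 had 11. Collagens and other basement membrane genes were hosts in 5 of 40 cases, with 23 reads in LAMC1, 21 in COL23A1 and 19 in HMCN1, and 0 of 5 sites called. Voltage-gated channels were hosts in 4 of 38 cases, and both called sites of their 6 were in CACNA1C. KCND2, a potassium channel, had 22 reads and no call.

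Marker genes of other cell types were not hosts: 0 of 16 hepatocyte, 0 of 16 blood cell and 0 of 14 epithelial genes. Their median lengths were 9.17, 6.61 and 6.21 kb, against 24.2 kb for all protein-coding genes. Over all genes 4.45% were hosts, and in the shortest and next-shortest of the 4 length groups 0.641% and 2.68%. Lists this small would hold few or no hosts at those shares, so the counts do not set these genes apart. The sites nearest to the threshold were in DLGAP1 and FMN1 at a −log10 q of 10.03 and PCSK6 at 10.05, and the nearest intervals below it were in ASNS at 9.971 and in UTP25 and MAP4K1 at 9.95. These 6 had 17, 14, 16, 13, 11 and 11 siNEG reads, and none was called with siEWS-FLI.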

How the data were processed

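CUT&Tag libraries were made with a commercial protocol with 14 PCR cycles, a bead clean-up and 20 further cycles, per the labels' protocols. The submitters' processing notes name hg38, MACS2 2.2.9.1, Bowtie2 2.4.5 and Trim Galore 0.6.6, and say nothing of their roles. Whether a control library was used and duplicates were removed is not given. Each library has a deposited peak list, whose columns include a linear fold ratio over local background, a −log10 p-value, a −log10 q-value and a display score, which was not used. The siNEG list holds 17313 deposited lines and the siEWS-FLI list 6559. Lines with the same interval were merged to 16383 and 6444 intervals, of which 16274 and 6362 lie on chromosomes 1 to 22 and X.

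The members, gene lists and comparisons were chosen with earlier results of these data known. Pileups were solved from both the fold and the −log10 p-value of each deposited line under a Poisson background (tolerance 0.001), which gave a whole number for 100.0% of intervals in both lists. The solver recovered 100% of 2000 simulated sites. Read totals of the libraries are not known, and pileups were not scaled. The ratio of library-wide backgrounds, 0.687 for siEWS-FLI over siNEG, is the only guide to relative depth used here. Genes, 393 of 393 listed symbols and promoter windows came from RefSeq GRCh38 tables at the level of whole genes, and exons and introns were not analysed here. Shares have 95% Wilson intervals, pileups exact Poisson intervals, and differences weighted by siNEG pileup class (under 20, 20 to 49, 50 to 99, 100 or more) normal intervals over sites. With 1 library per group there is no replicate error. Hosts were named by rank of pileup, ratio and site number, by list, and by closeness to the threshold, and those chosen after their values were seen are marked. Alternatives changed the overlap, both thresholds, the gene-end and start distances, the pileup classes and the sites included. Scripts used Python 3.11.15, numpy 2.4.6, pandas 2.3.3 and scipy 1.17.1. Some members and 1 gene list are not reported here.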

Additional observations from a re-analysis of the deposited data

How the results depend on the processing

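Alternatives were run for 9 results: the number of sites, their depth, hosts with 2 or more, non-coding and start neighbours, the share called, the pileup ratio, and the differences from gene-end sites and by start. None of these changed direction under the 56 alternatives, of which 29 left a value within its counting interval, or a count near the one reported, and 27 moved it further. The share of gene-body sites called with siEWS-FLI, 27.7% as reported, became 14.5% with a reciprocal overlap of 50%, 15% with a siEWS-FLI −log10 q of at least 5, 20.2% with siEWS-FLI intervals wider than 200 bases and 24.5% with a gene-end distance of 5 kb. At siNEG −log10 q thresholds of 5 and 20 it was 15.5% and 42.0%, the median pileup ratio 0.32 and 0.193, the number of sites 2300 and 393, hosts with 2 or more sites 327 and 20 in place of 86, the median depth 20.8 and 13.4 kb, and the share at starts 19.2% and 26.3%. The ratio was 0.3 with the siEWS-FLI threshold of 5. The difference from gene-end sites was −6.21 points with reciprocal overlap and −10.6 with the siEWS-FLI threshold. The difference between sites with and without a start was 6.58, 9.74 and 10.1 points with reciprocal overlap, the siEWS-FLI threshold and the siNEG threshold of 5. With a gene-end distance of 5 kb the depth was 29.6 kb, non-coding neighbours 8.8% and starts 17.8%. The share at starts was 18.7% within 250 bases and 27.1% among hosts with a tabulated start. Alternatives for the start results, and those without LOC102724250 and SPTLC3, were chosen after seeing the data. No paired analysis was possible because each group has 1 library. The chromosome 19, pseudogene, transfer RNA, intergenic, motif, position and gene list values had no alternative. The read totals of the libraries are unknown, and their relative depth is known only through the ratio of their backgrounds.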
